A study of Homo sapiens with 4 samples.

Results

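Collagen genes were taken as the identifiers made of COL, a type number, the letter A and a chain number, and 44 of the 26485 gene identifiers in the deposited tables met this rule. The expression of each was its TPM (a gene's share of all transcripts, scaled for mRNA length), summed over the rows of an identifier. In 21 collagen genes the level averaged 1 TPM or more, and these are followed one by one. The groups were 8505C cells given DHT, 8505C cells given DMSO, SW1736 cells given DHT and SW1736 cells given DMSO, with 1 library each and 4 in all. DHT stands for dihydrotanshinone, a tanshinone from the root of Salvia miltiorrhiza, used at 1.5 µM for 24 h, and DMSO was the vehicle. Both lines are established lines from anaplastic thyroid cancer, an undifferentiated tumour of the thyroid follicular cell, and every group was grown in RPMI-1640 medium with serum. Since no group had a second library, no difference has a replicate check or a p-value. A gene was counted as different at 2-fold or more as a difference of log2(TPM + 1), where adding 1 shrinks the folds of low genes.

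Collagens are extracellular proteins whose chains wind into a triple helix of repeated glycine-X-Y triplets. Fibrillar collagens build the cables of the interstitial matrix, type IV forms the sheet of basement membranes on which epithelia such as the thyroid follicle rest, and the remaining types link, anchor or decorate these structures. Chains of a type must meet in the endoplasmic reticulum to form a trimer, after hydroxylation of proline and lysine and with help of the chaperone HSP47.

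The libraries held 3.27 to 4.15 Gb of aligned bases by the ratio of deposited coverage to FPKM, and without read numbers the counting error has no interval. Of 8 thyroid follicular markers, PAX8, NKX2-1, FOXE1 and HHEX had a mean of at least 1 TPM, whereas TSHR was listed at 0 in all libraries. Of 12 fibroblast markers 5 reached that mean, with summed levels of 183 and 143 TPM in 8505C with DHT and DMSO and 233 and 171 TPM in SW1736 with DHT and DMSO. The 5 were TAGLN (48.1 to 197 TPM over the libraries), FBLN1 (6.70 to 90.0), PDPN (6.85 to 15.5), ACTA2 (4.90 to 9.41) and POSTN (4.09 to 7.70). The fibroblast-defining genes PDGFRA and FAP were listed at 0 in every library, and DCN and LUM did not exceed 0.121 TPM. In bulk RNA, fewer cells that carry an mRNA and less of it per cell cannot be told apart.

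The 6 type IV genes lie in 3 pairs whose members start close to each other and are read in opposite directions, so each pair has its start region in common. In the deposited hg38 loci, 126 bases lie between COL4A1 and COL4A2 on chromosome 13, 346 between COL4A6 and COL4A5 on chromosome X and 5 between COL4A4 and COL4A3 on chromosome 2. The stretch between COL4A1 and COL4A2 is shown because both lines carried these mRNAs, and the bases before COL4A5 because only 8505C libraries had its mRNA above 1 TPM. The bases before COL12A1 are shown because this gene had the lowest fold with DHT. All are RefSeq sequences (GRCh38.p14), written 5′ to 3′, with capitals for CCAAT or GGGCGG on either strand.
COL4A1-COL4A2, chr13:110307158-110307283, plus strand: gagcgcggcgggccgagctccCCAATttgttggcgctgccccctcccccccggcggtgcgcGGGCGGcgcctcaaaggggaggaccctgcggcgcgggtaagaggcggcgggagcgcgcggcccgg
COL4A5, chrX:108439588-108439837, plus strand: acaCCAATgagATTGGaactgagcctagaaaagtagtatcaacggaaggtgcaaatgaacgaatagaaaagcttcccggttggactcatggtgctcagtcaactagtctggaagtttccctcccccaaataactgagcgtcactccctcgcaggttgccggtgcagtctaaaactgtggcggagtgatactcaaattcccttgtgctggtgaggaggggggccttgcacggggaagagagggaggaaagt
COL12A1, chr6:75206054-75206303, minus strand: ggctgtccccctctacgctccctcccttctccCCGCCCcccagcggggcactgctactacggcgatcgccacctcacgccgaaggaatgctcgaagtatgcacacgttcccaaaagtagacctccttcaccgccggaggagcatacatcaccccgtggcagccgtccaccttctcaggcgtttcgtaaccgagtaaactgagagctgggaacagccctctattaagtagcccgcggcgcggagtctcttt

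The COL4A1-COL4A2 stretch was 80.2% G and C and held 1 CCAAT (the core of the CCAAT box, bound by NF-Y) and 1 GGGCGG (the core of the GC box, bound by SP1). The COL4A5 bases were 51.2% G and C, with 2 CCAAT and 0 GGGCGG. COL12A1 had 61.2% G and C, with 0 CCAAT and 1 GGGCGG. The RefSeq table had entries for 14 of the 21 collagen genes, and in the 250 bases before their starts GGGCGG occurred for 10 genes, CCAAT for 5 and the AP-1 motif TGANTCA for 0, both strands searched. Of all 35116 such windows 42.6% held GGGCGG, 32.0% CCAAT and 6.57% TGANTCA. These matches are descriptions of the letters, and 3 of the 14 genes had more than 1 window. The CCAAT genes were COL17A1, COL4A1, COL4A2, COL4A5 and COL4A6. Windows of each head-to-head pair overlap, so shared bases were counted for both of its genes.

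Type I collagen, the main fibre of skin, bone and scar, set the lines apart most plainly. COL1A1 (chromosome 17, 50184096 to 50201639) stood at 0.773 TPM in 8505C with DHT and 0.496 with DMSO, against 146 in SW1736 with DHT and 349.9 with DMSO. COL1A2 (chromosome 7, 94394561 to 94431232) was listed at 0 in both 8505C libraries, against 136 TPM in SW1736 with DHT and 237 with DMSO. SW1736 thus carried both chains of type I at high levels, and 8505C carried neither at 1 TPM. The TPM ratio of COL1A1 to COL1A2 in SW1736 was 1.07 with DHT and 1.47 with DMSO.

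Other fibrillar genes followed different patterns. COL5A1, a chain of the type V collagen that sits in the core of type I fibrils, was at 32.0 TPM in 8505C with DHT and 25.6 with DMSO, against 54.9 in SW1736 with DHT and 95.0 with DMSO. Its partner COL5A2 was at 5.65 and 3.27 TPM in 8505C with DHT and DMSO, against 6.06 and 15.5 in SW1736 with DHT and DMSO. Type V mRNAs were thus present in all libraries, and highest in SW1736 with DMSO. COL3A1, which forms thin fibres in elastic tissues, was at 7.77 and 2.69 TPM in 8505C with DHT and DMSO and at 0.137 and 0.301 in SW1736 with DHT and DMSO. It was the only fibrillar gene of the 6 at a mean of 1 TPM whose 8505C libraries both lay above both SW1736 libraries. COL27A1 was below 1 TPM in 8505C (0.775 and 0.648 with DHT and DMSO) and at 14.5 and 16.8 TPM in SW1736 with DHT and DMSO.

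**Figure D1:**
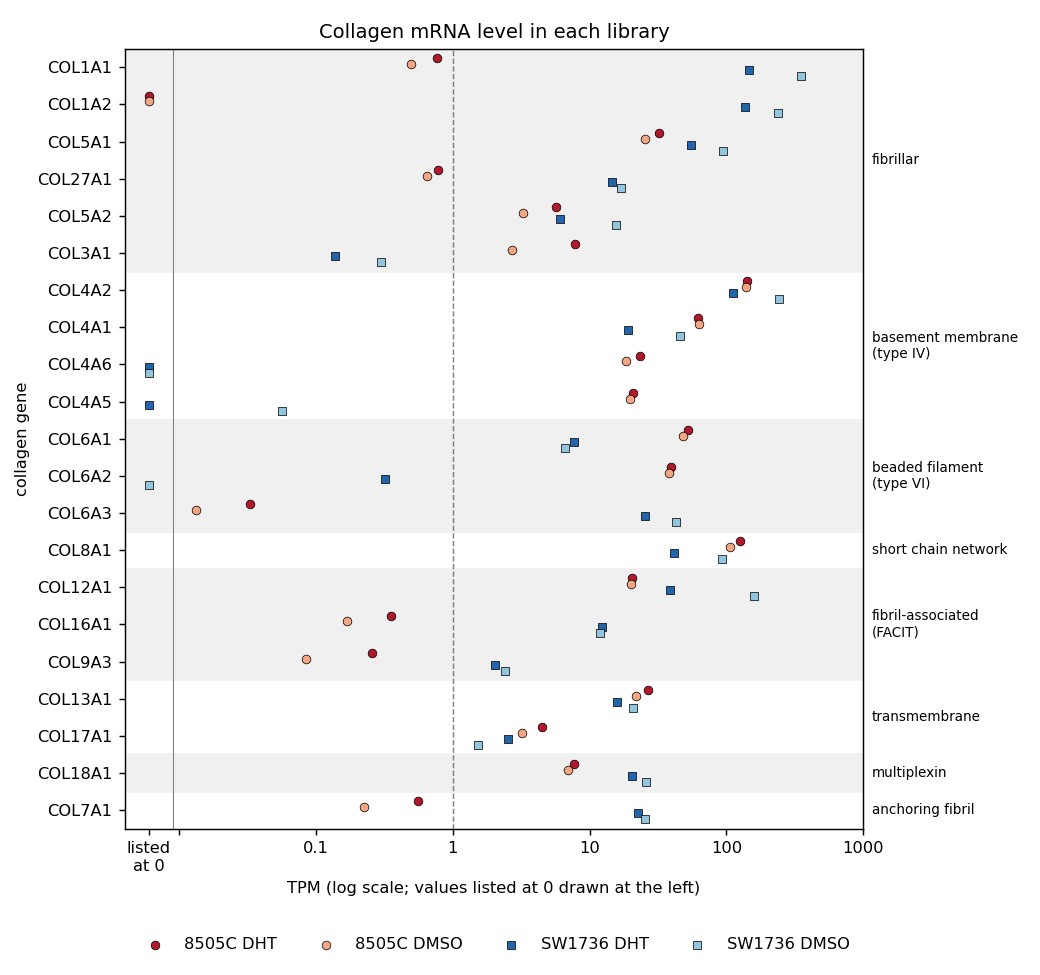
TPM (log axis, values listed at 0 at the left edge) of the 21 collagen genes at a mean of at least 1 TPM, grouped by class, with 1 symbol per library. Circles (8505C) and squares (SW1736) lie far apart for genes such as COL1A1, COL1A2, COL4A5, COL4A6, COL6A2, COL6A3, COL7A1, COL16A1 and COL27A1, and close together for COL13A1 (15.9 to 26.6 TPM).

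Basement membrane collagen was carried by both lines, with an added pair of chains in 8505C. COL4A2 stood at 141 and 139.5 TPM in 8505C with DHT and DMSO, against 111 and 242 in SW1736 with DHT and DMSO. COL4A1, its partner in the common type IV trimer, was at 61.8 and 63.2 TPM in 8505C with DHT and DMSO, against 19.1 and 45.8 in SW1736 with DHT and DMSO. SW1736 given DHT was the lowest library for each, and COL4A1 was higher in both 8505C libraries than in either SW1736 library. The trimer is known to hold more of the chain of COL4A1 than of COL4A2, whereas TPM of COL4A2 was 2.28 and 2.21 times that of COL4A1 in 8505C and 5.81 and 5.29 times in SW1736, with DHT and DMSO.

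COL4A5 and COL4A6, whose chains form a distinct type IV network in some epithelial basement membranes, belonged to 8505C. COL4A5 stood at 20.9 and 19.6 TPM in 8505C with DHT and DMSO, and in SW1736 it was listed at 0 with DHT and at 0.0564 with DMSO. COL4A6 was at 23.3 and 18.6 TPM in 8505C with DHT and DMSO and was listed at 0 in both SW1736 libraries. The TPM ratio of COL4A6 to COL4A5 in 8505C was 1.12 with DHT and 0.946 with DMSO, so both genes of this head-to-head pair were present at like levels in one line and nearly absent from the other. COL4A3 and COL4A4, known from the kidney glomerulus, reached at most 0.687 TPM in 8505C and were listed at 0 in SW1736.

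Type VI collagen forms beaded filaments from the chains of COL6A1, COL6A2 and COL6A3, and neither line carried all of them at 1 TPM. COL6A1 was at 52.3 and 48.0 TPM in 8505C with DHT and DMSO, against 7.73 and 6.63 in SW1736 with DHT and DMSO. COL6A2, which follows COL6A1 in the same direction 93.1 kb away on chromosome 21, was at 39.6 and 38.3 TPM in 8505C with DHT and DMSO, and in SW1736 at 0.318 with DHT and listed at 0 with DMSO. The reverse held for COL6A3 on chromosome 2, at 0.0332 and 0.0132 TPM in 8505C with DHT and DMSO, against 25.6 and 42.8 in SW1736 with DHT and DMSO. The chain mRNA under 1 TPM was therefore COL6A3 in 8505C and COL6A2 in SW1736. COL6A5 and COL6A6 were listed at 0 throughout.

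Among the collagens that associate with fibrils, COL12A1 (chromosome 6, 75084326 to 75205907) was the most abundant, at 20.4 and 20.1 TPM in 8505C with DHT and DMSO, against 38.9 and 159 in SW1736 with DHT and DMSO. COL16A1 was at 0.350 and 0.170 TPM in 8505C with DHT and DMSO, against 12.3 and 11.9 in SW1736 with DHT and DMSO. COL9A3, a cartilage collagen, was at 0.257 and 0.0840 TPM in 8505C and at 2.03 and 2.40 in SW1736, with DHT and DMSO. All of them were higher in SW1736 than in 8505C, COL12A1 least so with DHT. The COL12A1 locus also overlaps that of MIR7641-2, listed at 0 in 8505C and at 1.22 and 2.57 TPM in SW1736 with DHT and DMSO. The end of COL9A3 overlaps TCFL5, a gene on the other strand at 19.9 to 36.8 TPM, by 146 bases, so the low COL9A3 values are uncertain.

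The remaining genes differed in the line that carried more. COL8A1, a network collagen of vessel walls and of the cornea, was at 126 and 107 TPM in 8505C with DHT and DMSO, against 41.7 and 92.4 in SW1736 with DHT and DMSO. COL7A1, the anchoring fibril of the skin, was at 0.558 and 0.222 TPM in 8505C with DHT and DMSO, against 22.7 and 25.6 in SW1736 with DHT and DMSO. COL7A1 thus belonged to SW1736, whereas COL8A1 was abundant in both lines. COL18A1, whose protein holds the endostatin fragment, was at 7.68 and 6.90 TPM in 8505C and at 20.4 and 25.7 in SW1736, with DHT and DMSO. The membrane-spanning collagens were within 2-fold between the lines as log2(TPM + 1): COL13A1 was at 26.6 and 21.7 TPM in 8505C and at 15.9 and 20.8 in SW1736, and COL17A1, a hemidesmosome protein of epithelia, was at 4.45 and 3.23 TPM in 8505C and at 2.54 and 1.52 in SW1736, with DHT and DMSO.

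The other 23 collagen genes had a mean under 1 TPM and no library above 0.804 TPM, and 11 of them were listed at 0 in all libraries. COL9A3 (mean 1.19 TPM) and COL3A1 (2.72) lay just above the limit, and COL11A2 (0.498, with 7 loci in the tables) and COL9A2 (0.314) just below it. COL2A1 and COL10A1, markers of cartilage, reached 0.0290 TPM at most and 0 TPM. Of the 21 genes, 10 were at 1 TPM or more in every library, 14 in both 8505C libraries and 17 in both SW1736 libraries.

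Summed over all collagen genes, 8505C had 574 TPM with DHT and 520.4 with DMSO, and SW1736 had 680.1 with DHT and 1393 with DMSO. Fibrillar genes made up 8.30% and 6.36% of this sum in 8505C with DHT and DMSO, against 52.8% and 51.4% in SW1736 with DHT and DMSO. Type IV genes made up 43.2% and 46.4% in 8505C, against 19.1% and 20.7% in SW1736, again with DHT and DMSO. The shares of these classes lay closer between treatments of a line than between lines. Fibril-associated collagens were 7.92% of the sum in SW1736 with DHT and 12.4% with DMSO. The 3 most abundant genes held 57.2% to 59.6% of the sum in each library. They were COL4A2, COL8A1 and COL4A1 in 8505C, and COL1A1, COL1A2 and COL4A2 in SW1736.

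**Figure D2:**
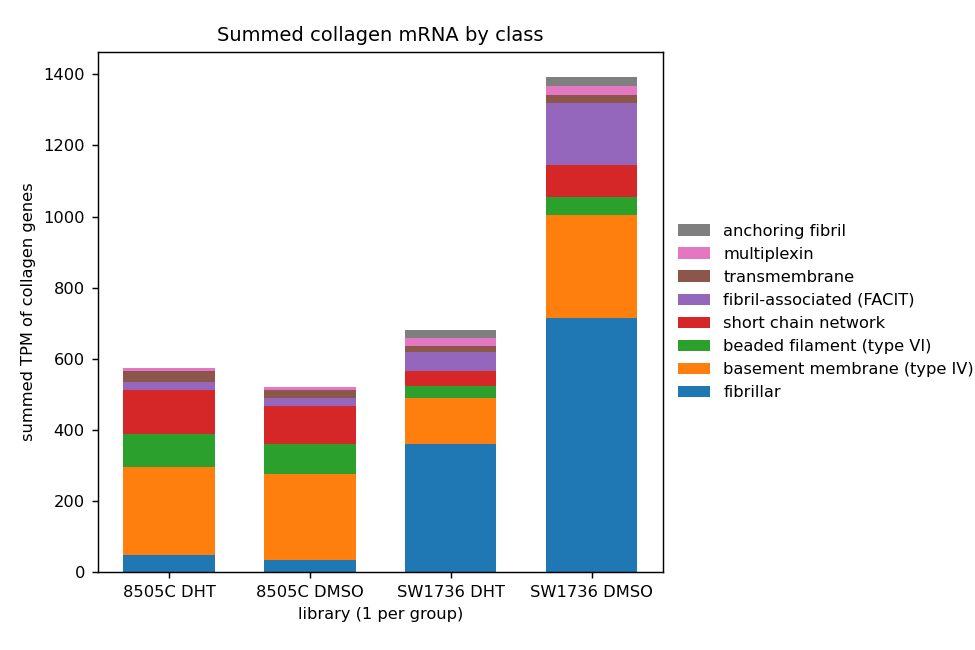
Summed TPM of the 44 collagen genes in each of the 4 libraries, stacked by class (linear axis from 0). SW1736 with DMSO stands at 1393 TPM and the other libraries between 520.4 and 680.1 TPM, and the fibrillar share is 8.30% and 6.36% in 8505C against 52.8% and 51.4% in SW1736, with DHT and DMSO.

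The first treatment question was how collagen mRNAs of SW1736 with DHT compared with those given vehicle. The most abundant ones were lower: the summed TPM with DHT was 0.488 times that with DMSO, and 6 of the 21 genes were at least 2-fold lower, with 0 higher. That is 28.6% of the collagen genes, where 15.6% of the 11723 protein-coding genes at a mean of at least 1 TPM were 2-fold lower and 2.78% 2-fold higher. The 6 were COL12A1 (log2 fold -2.001), COL1A1 (-1.25), COL5A2 (-1.23), COL4A1 (-1.22), COL8A1 (-1.13) and COL4A2 (-1.12). COL1A2 was at -0.79, COL5A1 at -0.78 and COL6A3 at -0.72, short of 2-fold. The mean depth over the exons of COL12A1 was 76.6 reads with DHT and 255 with DMSO, and over those of COL1A1 it was 288 and 563 reads with DHT and DMSO. The differences of COL12A1 and COL1A1 thus do not rest on sparse reads. COL5A2 had the lowest depth of the 6, at 11.9 and 25.0 reads with DHT and DMSO, so its value rests on fewer reads.

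Other collagen genes of SW1736 differed less. COL16A1 was at 0.04, COL7A1 at -0.16, COL27A1 at -0.21, COL18A1 at -0.32 and COL13A1 at -0.37 on the log2 scale, and COL17A1 (0.49) and COL6A1 (0.20) were higher with DHT. COL6A2 had 0.318 TPM in the DHT library and was listed at 0 in the DMSO library, so no fold is printed for it. The median over the 21 genes was -0.32, beside -0.42 over all genes tested. It includes COL3A1, COL4A5, COL4A6 and COL6A2, which were under 1 TPM in both SW1736 libraries and met the limit through 8505C. The added 1 largely sets their values there. How the medians compare depended on which genes were kept: at a mean of at least 5 TPM the collagen median was -0.54, beside -0.43 over all protein-coding genes at that mean. Among the 10 collagen genes at 1 TPM or more in every library, 5 were 2-fold lower and 0 higher (median -0.95), beside 16.0% lower and 2.18% higher (median -0.44) of the genes tested that met the same limit. Of the classes at a mean of at least 1 TPM, fibrillar genes had 2 of 6 at 2-fold lower (median -0.79), type IV 2 of 4 (-0.60) and all others 2 of 11 (-0.17). Over all genes tested 15.6% were 2-fold lower. The genes under 1 TPM in SW1736 enter these class values: COL3A1 the fibrillar, COL4A5 and COL4A6 the type IV, and COL6A2 the last. COL4A1 and COL4A2, the type IV genes above 1 TPM in SW1736, were the 2 lower ones.

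Most mRNAs of SW1736 had lower TPM with DHT, long ones above all, and collagen mRNAs are long. The longest annotated mRNA of the 21 genes had a median of 6494 bases, beside 3448 over all genes with a length, and 17 of the 21 lay in the longest tertile. In that tertile 29.5% of genes were at least 2-fold lower, 1.69% higher, and the median log2 fold was -0.72, and the 17 collagen genes there had the same median, -0.72. In the tertile of genes with the highest G and C content, which held 15 of the 21, 6.94% of genes were at least 2-fold lower. The median log2 fold there was -0.22, and that of the 15 collagen genes was -0.21. In the middle tertile of G and C content, which held the other 6, 15.1% of genes were at least 2-fold lower. The median log2 fold of that tertile was -0.42, and that of its 6 collagen genes was -0.92. The part of length or of G and C content in the collagen values was not tested. Relative to the median gene at a mean of at least 5 TPM, which stood at -0.43, COL12A1 alone was 2-fold lower (-1.57) and 0 collagen genes were higher, beside 4.06% and 4.78% of all genes. Relative to the median of the longest tertile, 1 was lower and 2 higher. With FPKM in place of TPM, COL12A1 (-1.76) and COL1A1 (-1.03) were 2-fold lower and the summed level was at -0.81 on the log2 scale.

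**Figure D3:**
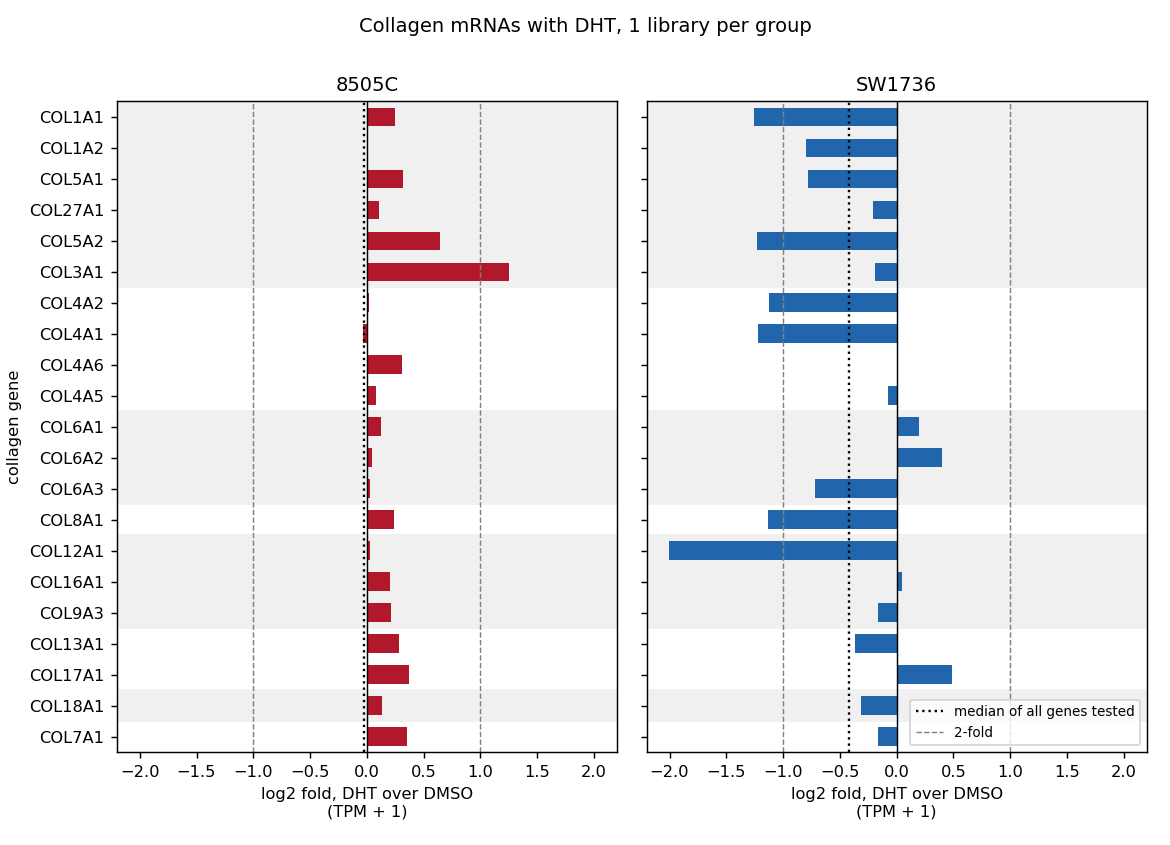
Log2 fold with DHT over DMSO (log2 of TPM + 1) of the 21 collagen genes, 8505C on the left and SW1736 on the right, with dashed lines at 2-fold and a dotted line at the median of all genes tested (-0.03 and -0.42). Bars of SW1736 reach -2.001 for COL12A1, and bars of 8505C are mostly short and to the right, with COL3A1 at 1.25, while the SW1736 bars of COL6A2 and COL4A5 involve a value listed at 0 and depend on the added 1.

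At the same dose most collagen mRNAs of 8505C were close to their vehicle levels. COL3A1 was 2-fold higher with DHT (7.77 and 2.69 TPM with DHT and DMSO, log2 fold 1.25), and 0 genes were 2-fold lower, that is 4.76% and 0% of the 21 genes, beside 0.273% and 0.162% of all genes tested. The mean depth over COL3A1 exons was 14.3 reads with DHT and 3.84 with DMSO, so its value rests on few reads. COL5A2, which lies 19.2 kb from COL3A1 on chromosome 2 and is read towards it, had the next fold (0.64, with 10.4 and 4.67 reads of depth with DHT and DMSO). The abundant genes hardly differed: COL4A2 was at 0.01, COL4A1 at -0.03, COL12A1 at 0.02 and COL8A1 at 0.23. The summed level with DHT was 1.10 times that with DMSO.

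Small differences in 8505C were nearly all upward. Of the 21 genes 19 were above 0 with DHT, COL4A1 was below and COL1A2 was listed at 0 in both libraries. The median was 0.21, beside -0.03 over all genes tested, of which 42.1% were above 0. Of the collagen genes above 0, COL1A1, COL6A3, COL7A1, COL9A3, COL16A1 and COL27A1 were under 1 TPM in both 8505C libraries. The collagen median was 0.13 at a mean of at least 5 TPM, and 0.07 with 5 added in place of 1. Among the 10 collagen genes at 1 TPM or more in every library it was 0.19, beside -0.03 over the genes tested that met this limit. Collagen mRNAs are rich in G and C, and 15 of the 21 lay in the tertile of genes with the highest content. In that tertile 68.7% of genes were above 0 with a median of 0.06, and the 15 collagen genes there had a median of 0.21. In the longest tertile of mRNAs, which held 17 of the 21, 30.7% of genes were above 0 with a median of -0.07. The 17 collagen genes there had a median of 0.21. The part of G and C content or of length in the collagen values was not tested.

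The lines were compared with each other given DHT and, from separate libraries, given DMSO. With DMSO, 5 of the 21 genes were at least 2-fold higher in 8505C and 11 at least 2-fold lower, or 23.8% and 52.4%, beside 9.97% and 12.6% of all genes tested. With DHT, 7 were higher and 8 lower (33.3% and 38.1%), beside 24.7% and 10.6% of all genes. The median gene at a mean of at least 5 TPM stood at 0.38 in the DHT libraries. Relative to it 7 collagen genes were higher and 10 lower, and relative to the longest tertile 5 were higher and 10 lower. A gene high in a single line passes the limit of 1 TPM through that line and must then differ, so these counts are not support for a difference of the family. Among the 10 collagen genes at 1 TPM or more in every library, 1 was higher and 4 lower with DMSO (COL6A1 higher; COL12A1, COL5A2, COL5A1 and COL18A1 lower), beside 6.21% and 9.98% of the 10346 genes tested that met the same limit. With DHT 3 of the 10 were higher (COL6A1, COL4A1 and COL8A1) and 1 lower (COL18A1), beside 22.0% and 7.90%.

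Genes 2-fold higher in 8505C under both conditions were COL6A2, COL4A6, COL4A5, COL6A1 (log2 difference 2.61 with DHT and 2.69 with DMSO) and COL3A1 (2.95 and 1.50). Those lower under both were COL1A2, COL1A1 (-6.37 and -7.87), COL6A3 (-4.69 and -5.43), COL7A1 (-3.93 and -4.44), COL16A1 (-3.30 and -3.47), COL27A1 (-3.12 and -3.44), COL18A1 (-1.30 and -1.76) and COL9A3 (-1.27 and -1.65), with DHT and DMSO. COL1A2, COL4A5, COL4A6 and COL6A2 were listed at 0 in a library, so no fold is given for them. COL12A1 (-2.92), COL5A2 (-1.95) and COL5A1 (-1.85) were 2-fold lower with DMSO, and with DHT they were at -0.90, -0.09 and -0.76. COL4A1 and COL8A1 were 2-fold higher in 8505C with DHT alone (1.64 and 1.57). Of 6 endothelial markers CDH5 and TIE1 reached a mean of 1 TPM, with summed levels of the list of 207 and 171 TPM in 8505C and 0.118 and 0.0427 in SW1736, with DHT and DMSO, while PECAM1 and VWF stayed at 0.207 TPM or less in every library. The part of such marker differences in the collagen values was not tested. For COL12A1, COL5A2, COL4A1 and COL8A1 the SW1736 values differed between DHT and DMSO by 2-fold or more.

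**Figure D4:**
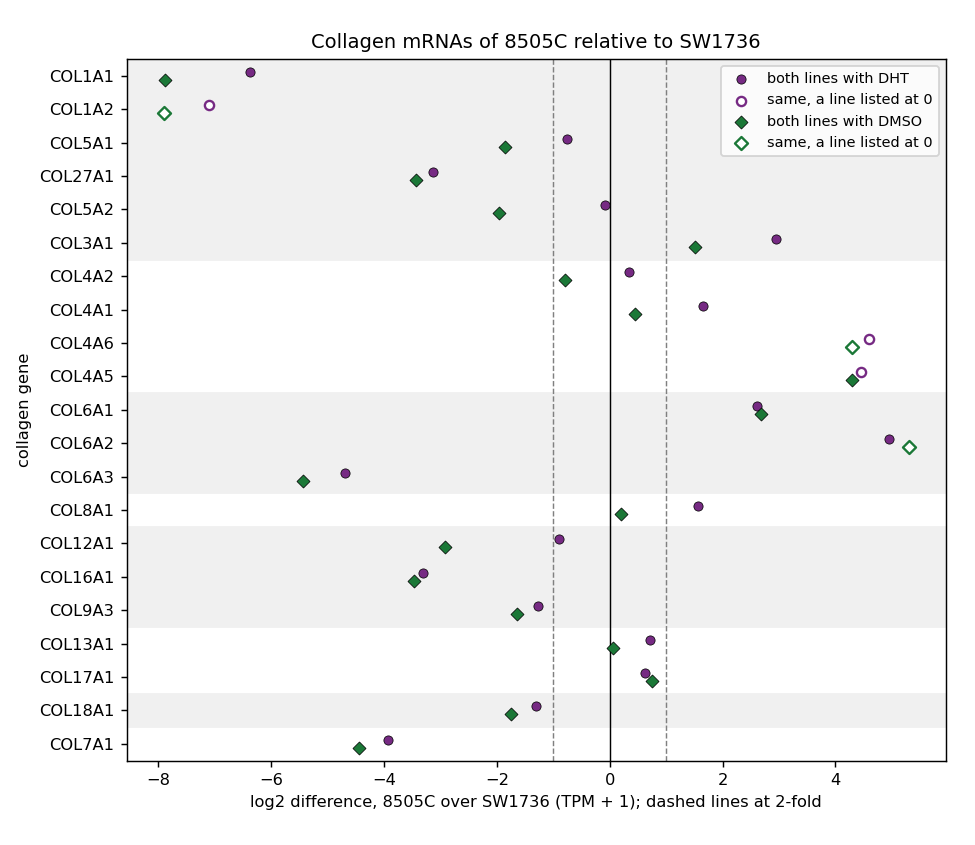
Log2 difference of 8505C over SW1736 (log2 of TPM + 1) of the 21 collagen genes, from the DHT libraries (circles) and from the DMSO libraries (diamonds), with dashed lines at 2-fold. Open symbols mark genes for which a line was listed at 0, whose position depends on the added 1, and COL12A1 and COL5A2 move most between the conditions (-0.90 and -2.92, -0.09 and -1.95).

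Genes that make, bind or cut collagen were read in 6 lists, with earlier results of these data known. Over the lists 7 of 52 genes at a mean of at least 1 TPM were 2-fold lower in SW1736 with DHT and 1 was higher, or 13.5% and 1.92%, beside 15.6% and 2.78% of all genes tested. The share lower was thus near that of all genes, and the single-list counts are read against it. Of 13 measured hydroxylases and glycosyltransferases, P3H1, a prolyl 3-hydroxylase, was 2-fold lower in SW1736 with DHT (28.96 and 72.7 TPM with DHT and DMSO, log2 fold -1.30), and 0 were higher. The most abundant of this list, the prolyl isomerase gene PPIB, was at 852 and 667 TPM in SW1736 with DHT and DMSO. Among 8 chaperone and export genes, 2 were 2-fold lower in SW1736 with DHT and 0 higher. FKBP14, a prolyl isomerase of the endoplasmic reticulum, was at 7.56 and 20.04 TPM with DHT and DMSO there (-1.30), and MIA3, an export receptor for large procollagens, at 9.61 and 20.8 TPM (-1.04). SERPINH1, which encodes HSP47, was at 272 and 195 TPM in 8505C with DHT and DMSO and at 382 and 419 in SW1736 with DHT and DMSO.

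Of 10 genes for propeptide removal and crosslinking, 0 were 2-fold apart with DHT in either line. TGM2, a transglutaminase and the most abundant of them, was at 195 and 179.8 TPM in 8505C and at 830.4 and 920.2 in SW1736, with DHT and DMSO. Of 10 fibril and network partners 3 were 2-fold lower in SW1736 with DHT and 0 were higher, beside 15.6% and 2.78% of all genes tested. AGRN, which encodes the basement membrane proteoglycan agrin, was at 54.0 and 123 TPM there with DHT and DMSO (-1.18). THBS1, the thrombospondin gene, was at 309 and 682 TPM (-1.14), and PXDN, a peroxidase that crosslinks type IV, at 67.4 and 143 TPM (-1.07), with DHT and DMSO. FN1, the fibronectin gene, was at 201 and 209.9 TPM in 8505C and at 2827 and 2583 in SW1736, with DHT and DMSO. Relative to the median gene of SW1736, P3H1 stood at -0.87, FKBP14 at -0.87 and AGRN at -0.75, short of 2-fold, with MIA3, THBS1 and PXDN nearer 0.

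In the receptor list 1 of 7 genes was 2-fold higher and 0 lower in SW1736 with DHT, beside 2.78% and 15.6% of all genes tested. ITGB1, the beta chain of the collagen-binding integrins, was at 432 and 792 TPM there with DHT and DMSO (-0.87). In the degradation list 1 of 4 was 2-fold lower and 0 higher in SW1736 with DHT, beside the same 15.6% and 2.78%. The interstitial collagenase gene MMP1 was at 4764 and 6015 TPM in 8505C with DHT and DMSO, and in SW1736 at 0.143 with DHT and listed at 0 with DMSO. In 8505C 0 genes of the 6 lists were 2-fold apart with DHT.

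**Figure D5:**
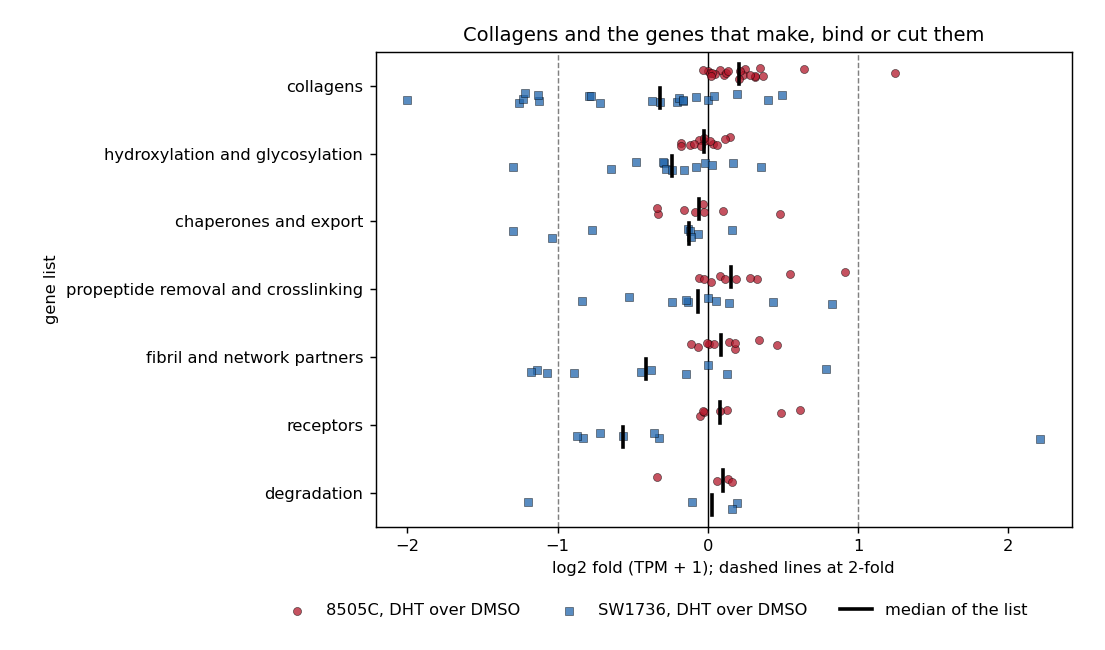
Log2 folds with DHT over DMSO (log2 of TPM + 1) of the 21 collagen genes and of the measured genes of 6 lists, 8505C as circles and SW1736 as squares, with a black bar at each list's median and dashed lines at 2-fold. The collagen medians are 0.21 in 8505C and -0.32 in SW1736, and no list has an 8505C gene beyond 2-fold except COL3A1 among the collagens.

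The deposited TPM and coverage disagreed on the relative level of some collagen genes. In SW1736 with DMSO the ratio of coverage to FPKM was 3.67 for most of them, but 1.10 for COL18A1, 2.33 for COL5A1, 2.99 for COL4A1 and 3.29 for COL6A3, so the levels of these set against other genes depend on the measure. By coverage, COL4A2 was 6.49 times COL4A1 in that library, and 5.29 times by TPM. COL6A2, listed at 0 in that library, had a ratio of coverage to FPKM of 2.48 in 8505C with DMSO, where most had 3.27. In 8505C with DMSO, COL6A1 was 1.65 times COL6A2 by coverage and 1.26 times by TPM. The DHT fold in SW1736 by TPM and by scaled coverage was -1.22 and -1.23 for COL4A1 and -0.72 and -0.74 for COL6A3. It was -0.32 and -0.30 for COL18A1, and -0.78 by both for COL5A1. For COL1A1, which had the usual ratio of 3.67, like folds follow from that ratio (-1.25 and -1.26). COL5A1 overlaps a gene on the other strand (at most 2.04 TPM) and COL4A2 and COL18A1 overlap antisense genes at 0.654 TPM or less, and whether counting used the strand is not given in the sources used here.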

How the data were processed

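RNA from SW1736 and 8505C cells was isolated on RNeasy columns and 1 µg was made into libraries with the Universal Plus mRNA-Seq kit, per the labels' protocols. The submitters' processing notes name bcl2fastq 2.20, StringTie and hg38; the aligner, the annotation and the StringTie version were not stated. The authors deposited 1 table per library with TPM (summing to 1000000), FPKM and mean coverage per gene, per the file headers. TPM fixes the total, so a gain of some mRNAs lowers all others.

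Rows of an identifier were summed, and folds are differences of log2(TPM + 1). The background was 11723 protein-coding genes (RefSeq symbol, GENCODE v29 name or a synonym) at a mean of at least 1 TPM. Lengths and G and C content are those of the longest GENCODE v29 protein-coding transcript. The fold count was tested on simulated data, with changes larger than 2-fold planted in genes at 5 TPM or more. It was not tested on changes near 2-fold or on genes near 1 TPM. No test was run, since each group is 1 library and the lines are not replicates of each other. The collagen genes, classes and lists were chosen with earlier results of these data known. Named were all collagen genes at a mean of 1 TPM, list genes 2-fold apart with DHT at a mean of 5 TPM, and each list's most abundant gene. Alternatives were other pseudocounts (0.1 and 5), filters, a 1.5-fold limit, FPKM, coverage scaled to its sum, and centring on the median gene (those at a mean of at least 5 TPM) or, chosen after seeing the data, on the longest tertile of mRNAs. Python 3.11.15, pandas 2.3.3 and numpy 2.4.6 were used.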

Additional observations from a re-analysis of the deposited data

Results flagged for a closer look

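With DHT, 14 of the 21 collagen genes at a mean of at least 1 TPM had folds of opposite sign in the lines, above 0 in 8505C and below 0 in SW1736. Of all genes tested, 42.1% were above 0 in 8505C and 20.8% in SW1736, and the share with such opposite signs was not counted. With 1 library per group the differences between the lines were not tested, and 1 of the 14, COL5A2, was at least 1.5-fold apart each way (0.64 in 8505C and -1.23 in SW1736). The log2 fold of 8505C minus that of SW1736 was 2.025 for COL12A1, 1.87 for COL5A2, 1.50 for COL1A1 and 1.44 for COL3A1. It was 1.36 for COL8A1, 1.14 for COL4A2, 1.09 for COL5A1 and 0.75 for COL6A3. It was 0.65 for COL13A1, 0.51 for COL7A1, 0.45 for COL18A1, 0.38 for COL9A3, 0.31 for COL27A1 and 0.16 for COL4A5. The median of all genes tested was -0.03 in 8505C and -0.42 in SW1736, and COL1A1, COL6A3, COL7A1, COL9A3 and COL27A1 were under 1 TPM in both 8505C libraries and COL3A1 and COL4A5 in both SW1736 libraries, where a small change in TPM gives the sign.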

How the results depend on the processing

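No paired analysis was possible because each group has 1 library and the labels give no replicate numbers. In SW1736 the count of collagen genes 2-fold lower with DHT was 6, but 2 with FPKM, 1 centred on the median gene and 1 centred on the longest tertile of mRNAs. The count 2-fold higher was 0, but 1 with a pseudocount of 0.1 and 2 centred on the longest tertile. The summed level, at -1.03 on the log2 scale, was at -0.81 with FPKM. The median fold in SW1736 was below 0 with TPM, FPKM and coverage, but 0.11 centred on the median gene, 0.40 centred on the longest tertile and 0 without a filter. It was -0.32 as reported, -0.65 with a pseudocount of 0.1 and -0.54 at a mean of 5 TPM. In 8505C the count 2-fold higher was 1, but 2 with a pseudocount of 0.1 or a 1.5-fold limit, and 0 with a pseudocount of 5 or at a mean of 5 TPM. The 8505C median of 0.21 was 0.24 with a pseudocount of 0.1 and 0.07 with a pseudocount of 5. It was 0.13 at a mean of 5 TPM and 0.03 without a filter. Between lines with DMSO the median of -1.65 was -0.78 with a pseudocount of 5, -0.99 with FPKM and 0 without a filter, when genes at 0 enter. The counts between lines, and the number of collagen genes at a mean of 1 TPM (18 to 21), stayed within 1.5 times. Of 504 single-gene values, 470 kept their side of 2-fold, 24 dropped below it and 10 passed it. Depth limits the low members most, since exons of COL1A1 in 8505C had a mean depth of 1.42 reads with DHT and 0.708 with DMSO.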

Other observations

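A few genes of the lists and markers were singled out after their values were seen. DDR2, a receptor tyrosine kinase for fibrillar collagens, was at 1.20 and 0.572 TPM in 8505C with DHT and DMSO, and in SW1736 at 3.82 with DHT and 0.0394 with DMSO (log2 fold 2.21). SOX9, a transcription factor that drives cartilage collagens in chondrocytes, was at 20.4 and 16.4 TPM in 8505C with DHT and DMSO and at 216 and 104 in SW1736 with DHT and DMSO (log2 fold 1.05). The cartilage genes ACAN and COMP were listed at 0 in all libraries. MATN3, of the same marker list, was at 2.24 and 1.79 TPM in 8505C and at 5.06 and 8.25 in SW1736, with DHT and DMSO (log2 fold -0.61 in SW1736). CTSK, a collagen-cutting cathepsin, was the 2-fold lower gene of the degradation list (0.369 and 2.13 TPM in SW1736 with DHT and DMSO). Between the lines, PCOLCE2, an enhancer of procollagen cleavage, was at 16.1 and 16.8 TPM in 8505C and listed at 0 in SW1736. MMP14, a membrane-bound collagenase, was at 26.9 and 24.4 TPM in 8505C and at 392 and 351 in SW1736, and LOX, a lysyl oxidase, at 114 and 59.9 in 8505C and at 24.7 and 35.9 in SW1736, all with DHT and DMSO.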
